A study of Mus musculus and Homo sapiens with 14 samples.

Results

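The genes described here are 10 genes of antigen presentation, measured by RNA-seq in mouse acute myeloid leukemia cells. They were chosen by name: H2-K1, H2-D1, B2m and Tap1 of the class I route, H2-Aa, H2-Ab1, H2-Eb1 and Cd74 of the class II route, and the regulators Nlrc5 and Ciita. All 10 were found among the 20682 rows of each of the 3 mouse tables, and 6 of the 10 had enough reads to be tested in each comparison. The series asks what inhibition or loss of salt-inducible kinase (SIK) does to leukemia cells, and 10 of its 14 libraries are from mouse cells. RN2 cells are a mouse myeloid leukemia made with the MLL-AF9 fusion and an activated Nras, and RN2c cells carry Cas9 in addition. RN2 cells, whose titles also carry the word empty, received 350 nM YKL-05-099, a small-molecule SIK inhibitor, or 0.1% DMSO for 2 h, with 2 libraries each. RN2c cells were collected on day 2 after infection with guide RNAs against Rosa26 (the control locus, 2 libraries), Sik3 (guides e1 and e3, 1 library each) or Mef2c (guides 1 and 2, 1 library each). All RN2c libraries, the controls included, therefore carry Cas9 and a guide. The 2 libraries of a knockout group differ in guide, and nothing in the labels says that the libraries came from separate cultures, so p-values measure the spread between these libraries only.

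Class I molecules display peptides from inside the cell to CD8+ T cells: the heavy chains H2-K and H2-D pair with beta-2 microglobulin (B2m), and the TAP transporter, of which Tap1 is a subunit, brings peptides into the endoplasmic reticulum. Class II molecules display peptides from the endosome to CD4+ T cells: H2-Aa with H2-Ab1 and H2-Eb1 with an alpha chain form the dimers, and Cd74 is the invariant chain that guides them. NLRC5 and CIITA are related proteins that do not bind DNA themselves. They are recruited to a shared promoter module, bound by the RFX complex, CREB-family factors and NF-Y, and NLRC5 is known for class I genes as CIITA is for class II genes. Both regulators can be induced by interferon-gamma in many cell types. MEF2C is a transcription factor on which many leukemias of this type depend, and SIK3 is a kinase that keeps class IIa histone deacetylases away from MEF2C.

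Promoters of 2 class I and 2 class II genes are shown because both regulators act through this module, so the letters can be read beside the values that follow. RefSeq promoters (GRCm38.p6) were found for 6 of the 10 genes, and the 250 bases before the transcription start are printed 5' to 3' on the gene's strand. Capitals mark matches, on either strand, to GCAAC (core of the X1 box, read by RFX), TGACG (the core of a cyclic AMP response element, read by CREB), CCAAT (the Y box, read by NF-Y, which appears as ATTGG on the other strand), GAAANNGAA (an interferon regulatory factor repeat) and GGGATTCCC (a kB-type palindrome). The windows are B2m at chr2:122147437-122147686 (plus strand), H2-K1 at chr17:34000348-34000597 (minus strand), H2-Aa at chr17:34287824-34288073 (minus strand) and H2-Eb1 at chr17:34305617-34305866 (plus strand).
B2m: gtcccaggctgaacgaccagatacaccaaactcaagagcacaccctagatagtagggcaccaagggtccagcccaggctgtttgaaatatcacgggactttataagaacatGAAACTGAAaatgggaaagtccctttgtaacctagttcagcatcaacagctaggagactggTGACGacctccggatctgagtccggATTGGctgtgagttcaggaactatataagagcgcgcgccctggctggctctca
H2-K1: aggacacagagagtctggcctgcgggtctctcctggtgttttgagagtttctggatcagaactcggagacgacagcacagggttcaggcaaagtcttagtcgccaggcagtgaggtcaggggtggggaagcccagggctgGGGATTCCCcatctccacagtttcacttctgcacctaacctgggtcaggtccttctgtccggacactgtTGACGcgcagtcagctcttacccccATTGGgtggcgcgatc
H2-Aa: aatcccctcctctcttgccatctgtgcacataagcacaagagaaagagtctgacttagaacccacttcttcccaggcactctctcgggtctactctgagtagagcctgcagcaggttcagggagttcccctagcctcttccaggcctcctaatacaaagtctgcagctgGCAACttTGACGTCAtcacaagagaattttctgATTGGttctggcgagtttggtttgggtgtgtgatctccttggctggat
H2-Eb1: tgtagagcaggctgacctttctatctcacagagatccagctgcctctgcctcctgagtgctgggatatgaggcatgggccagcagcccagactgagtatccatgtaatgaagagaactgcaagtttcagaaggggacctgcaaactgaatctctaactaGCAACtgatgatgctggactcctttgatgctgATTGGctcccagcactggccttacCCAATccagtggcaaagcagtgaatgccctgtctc

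The Y box core was present in the windows of all 6 genes with a promoter, and in 33.8% of 32851 RefSeq windows of this length. In B2m it lay at positions -53 to -49 from the start, with TGACG at -78 to -74. In H2-Aa, TGACG at -74 to -70 overlapped its own copy on the other strand, forming TGACGTCA, and followed GCAAC at -81 to -77. H2-Eb1 held GCAAC and 2 matches to the Y box core, and the response element core had no match there. That core, TGACG, was present in B2m, H2-K1, H2-D1, Tap1 and H2-Aa and in 17.8% of all windows, and GCAAC was present in Tap1, H2-D1, H2-Aa and H2-Eb1 and in 29.9% of all windows. In H2-D1, GCAAC matched at -212 to -208 and -14 to -10, and TGACG at -101 to -97. In Tap1, GCAAC matched at -196 to -192 and TGACG at -86 to -82. Neither gene had these matches side by side as in H2-Aa. GAAANNGAA was present in B2m (7.13% of all windows), and GGGATTCCC in H2-K1 and H2-D1 (0.301%). A match describes letters and not binding, and these tables hold no measurement of binding.

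The class I genes were expressed at levels far above those of the class II genes in every library. On the RPKM scale (reads scaled to the length of a gene's exons and to the reads of the library), the sgRosa26 controls gave 582.5 ± 9.69 for B2m, 96.8 ± 3.39 for H2-K1, 44.5 ± 1.17 for H2-D1 and 11.6 ± 0.170 for Tap1 (SD, n = 2). On that scale Nlrc5 was at 3.46 ± 0.0403, while Cd74 was at 0.479 ± 0.0231 and H2-Eb1, H2-Aa, H2-Ab1 and Ciita were at 0.0861, 0.0505, 0.0369 and 0.0299. The last 4 genes had between 2 and 7 reads in each control library, so their order is not resolved at this depth. In DMSO-treated RN2 cells the order from B2m to Nlrc5 was the same, and H2-Ab1 followed at 0.886 ± 0.109.

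**Figure D1:**
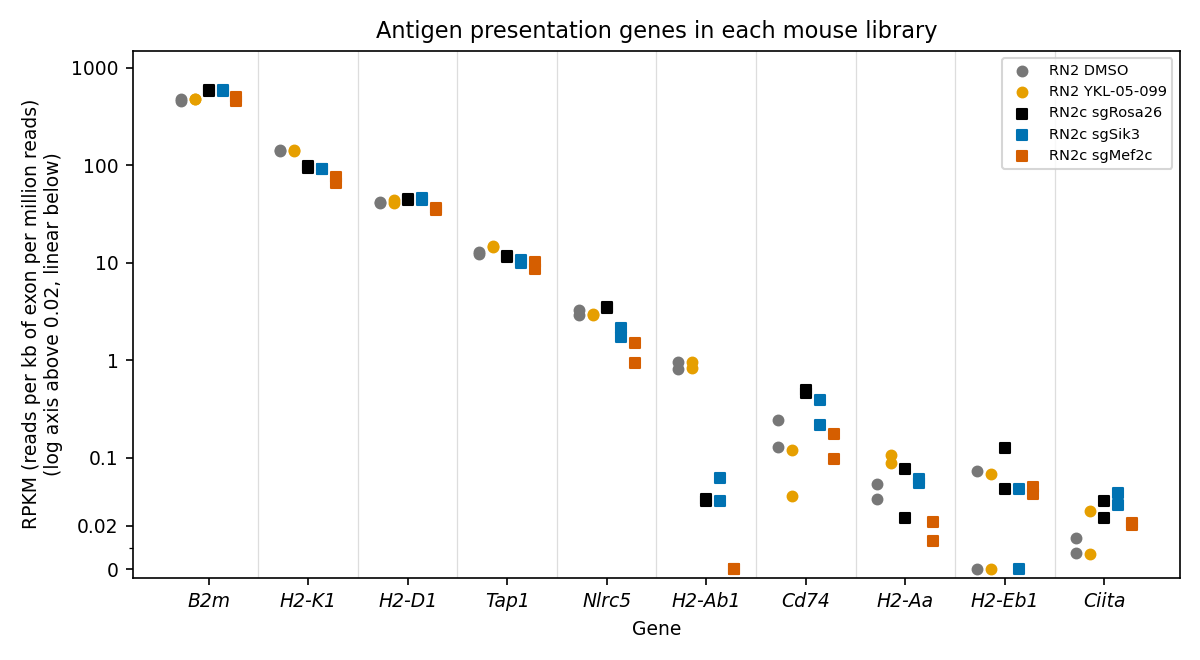
Levels of the 10 genes in each of the 10 mouse libraries, in RPKM (log axis above 0.02, linear below). Each point is 1 library and the colors are the groups; the class I genes and Nlrc5 lie above the class II genes and Ciita in every group, and H2-Ab1 in RN2 cells comes closest, at 0.809 to 0.964.

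Summed over the 4 genes of each route, the class I reads outnumbered the class II reads by 313 to 397 to 1 in RN2 cells. The sum of the 4 class I genes was 990 to 1020 CPM (reads scaled to the library's total) in RN2, 963 to 964 in sgRosa26, 941 to 958 in sgSik3 and 726 to 811 in sgMef2c. The sum of the 4 class II genes was 36 to 48 reads in each RN2 library, 24 and 29 reads in the sgRosa26 libraries, 23 and 14 in the sgSik3 libraries, and 8 and 9 in the sgMef2c libraries. The sgMef2c libraries were thus the lowest in both sums. In RNA from whole cultures, fewer cells of a type and less RNA per cell cannot be told apart.

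Libraries held 13961461 to 14943682 reads on genes in RN2 and 19065348 to 24275290 in RN2c, and the same 2 sgRosa26 libraries serve both knockout comparisons. The targeted genes moved with their labels: the normalised count of Sik3 was 1939 and 1878 in the controls and 1219 and 1169 with sgSik3. That of Mef2c was 8395 and 8369 in the controls and 3892 and 4021 with sgMef2c. Mef2c was also slightly lower with sgSik3 (log2 fold change -0.11, adjusted p = 0.0167, limma), where 23.9% of all genes fell. Sik3 did not pass with sgMef2c (0.09, adjusted p = 0.168, limma). Ms4a1 and Cd3e, which mark B and T cells, had 0 reads in every library, a result that allows up to 3 reads per library. Other B cell markers had reads: Cd79a was at 8.28 normalised counts in the controls of the sgSik3 table, and Cd79b at 8.69 with sgMef2c. Summed B cell markers (5 genes) reached at most 0.865 CPM in RN2c and 1.54 in RN2, and the 5 T and NK cell markers at most 0.201. The B cell sum was 0.554 to 0.582 CPM in sgRosa26, where the class II sum was 1.11 to 1.41. In sgMef2c it was 0.534 to 0.865, where the class II sum was 0.330 to 0.437. Whether a few such cells gave class II reads was not tested. Myeloid genes were present, with Csf1r, the receptor for the macrophage growth factor CSF1, at 1180 ± 49.1 normalised counts in the controls of the sgMef2c table.

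Nlrc5 fell in both knockouts. In the sgRosa26 libraries its normalised count was 603 and 598, and with sgSik3 it was 310 with guide e1 and 380 with guide e3. The groups did not overlap, and the log2 fold change was -0.80 (SE 0.10, adjusted p = 0.000169, limma). With all 6 RN2c libraries on 1 common scale, guides e1 and e3 left 51.7% and 63.3% of the control mean. Scaled with the sgMef2c libraries, the same controls gave 634 and 627, and sgMef2c gave 278 with guide 1 and 176 with guide 2. Again the groups did not overlap, and the log2 fold change was -1.51 (SE 0.19, adjusted p = 0.00189, limma). On the common scale, guides 1 and 2 left 44.0% and 27.8% of the control mean. Both calls held in every alternative analysis run, with log2 fold changes from -0.95 to -0.66 for sgSik3 and from -1.84 to -1.18 for sgMef2c. Nlrc5 lies on chromosome 8 (94434356 to 94527272, plus strand, GRCm38) and shares exon bases with a noncoding transcript of the other strand, 9330175E14Rik. The library kit is not stated to keep strand, so reads in the shared bases cannot be told apart.

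With sgSik3, 3 of the 4 class I genes did not pass the test. Among the 6 genes tested, Nlrc5 and Tap1 were lower and none was higher, in a comparison where 47.8% of all genes passed, 23.9% as lower and 23.9% as higher. B2m was at 10084 and 10414 normalised counts in the controls and at 10760 and 10418 with sgSik3, a log2 fold change of 0.05 (95% interval -0.03 to 0.12, adjusted p = 0.28, limma). For H2-K1, the controls gave 5935 and 5697 and sgSik3 gave 5687 and 5559. Its log2 fold change was -0.05 (95% interval -0.13 to 0.03, adjusted p = 0.283, limma), so a fall of more than 0.13 lies outside the interval. H2-D1 was at 2292 and 2400 in the controls and at 2493 and 2383 with sgSik3. Its groups overlapped, unlike those of B2m and H2-K1. The H2-D1 log2 fold change was 0.06 (95% interval -0.04 to 0.15, adjusted p = 0.314, limma). The median over the 4 class I genes was 0.00 on the log2 scale, as it was over all genes.

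Tap1 was 1307 and 1290 in the controls and 1138 and 1218 with sgSik3. The groups did not overlap, and the log2 fold change was -0.14 (SE 0.05, adjusted p = 0.0451, limma). This call sits at the threshold: it was lost without control 1 (adjusted p = 0.0624), without guide e1 (0.296), without guide e3 (0.0533) and with DESeq2 (0.23). Tap1 and Psmb9, an immunoproteasome subunit, start 211 bases apart on opposite strands and share exon bases, and their reads there cannot be told apart without strand. Psmb9 itself had a log2 fold change of -0.01 (adjusted p = 0.949, limma).

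With sgMef2c, each of the 4 class I genes fell, by less than Nlrc5. The 4 class I genes and Nlrc5 passed the expression filter in both groups and were lower, and with Cd74, which passed it through the controls, 6 of 6 genes tested were lower and none higher. Over all genes 31.4% passed, 15.1% as lower and 16.3% as higher. H2-K1, a classical heavy chain, was at 6238 and 5973 normalised counts in the controls and at 4832 and 4332 with guides 1 and 2. Its log2 fold change was -0.42 (SE 0.06, adjusted p = 0.00252, limma). H2-D1, the other classical heavy chain measured, went from 2410 and 2517 to 2071 and 1984, a log2 fold change of -0.28 (SE 0.05, adjusted p = 0.00498, limma). In both genes each sgMef2c library was below each control, and both calls held in every alternative analysis run.

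B2m, the light chain common to class I molecules, was 10600 and 10919 in the controls and 9511 and 8765 with sgMef2c. Its log2 fold change was -0.24 (SE 0.05, adjusted p = 0.0114, limma), and its call was lost without control 2 (adjusted p = 0.065) and with no mean-variance trend (0.0799). Tap1 was 1373 and 1353 in the controls and 1208 and 1039 with sgMef2c, a log2 fold change of -0.28 (SE 0.07, adjusted p = 0.0275, limma). Its call was lost without control 1 (adjusted p = 0.0972), control 2 (0.0817) or guide 2 (0.104), and with no trend (0.109). Guide 2 gave the lower value of the 2 guides for each of the 4 class I genes and Nlrc5. The median over the 4 class I genes was -0.28, and that over all genes tested was 0.00.

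H2-K1 lies on chromosome 17 at 33996017 to 34000347 (minus strand) and H2-D1 on chromosome 17 at 35262730 to 35267499 (plus strand). B2m is outside this cluster, on chromosome 2 at 122147686 to 122153083, and Tap1 is inside it, on chromosome 17 at 34187553 to 34197225 (both plus strand, GRCm38). Heavy chain genes are copies of each other, some closer than others. The split of reads between H2-K1, H2-D1 and the H2-Q and H2-T genes is therefore uncertain, to a degree that was not tested. B2m and Tap1 have no such copy in this family.

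**Figure D2:**
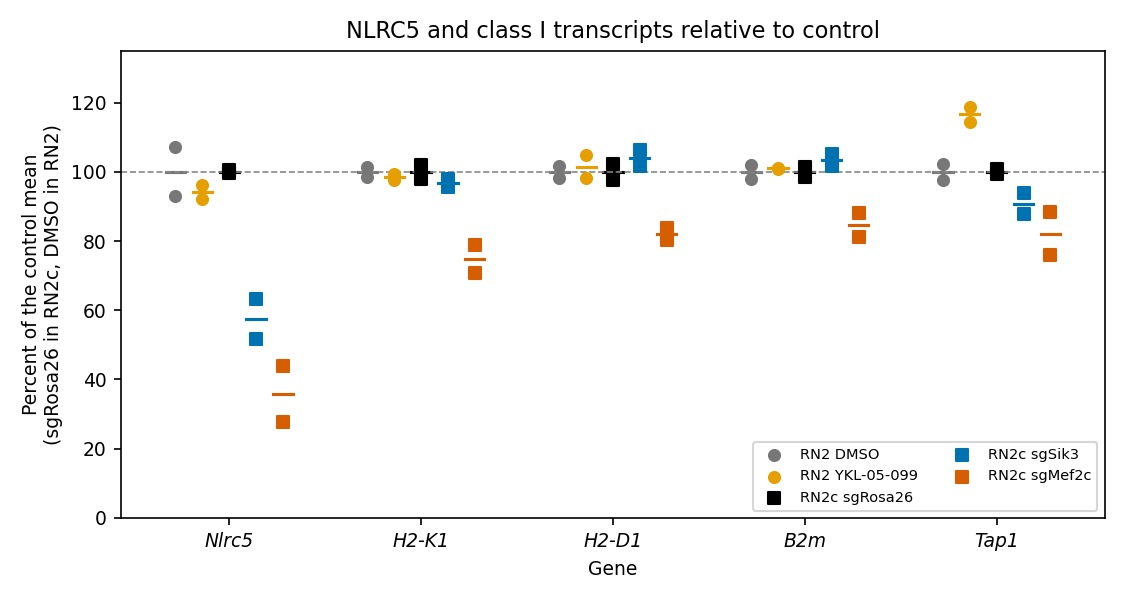
Nlrc5 and 4 class I genes in each library, in percent of the mean of the control libraries (sgRosa26 for RN2c, DMSO for RN2; the axis starts at 0). Points are libraries and bars are group means: with sgSik3 Nlrc5 is at 51.7% and 63.3% while H2-K1, H2-D1 and B2m are at 95.6% to 106%, and with sgMef2c all 5 genes are below 100%.

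The class II genes were at or near the limit of detection in RN2c cells. Cd74, the most abundant of them, had 18 and 16 reads in the sgRosa26 libraries, 14 and 7 in the sgSik3 libraries and 4 and 6 in the sgMef2c libraries. With sgSik3 its log2 fold change was -0.63 (SE 0.38, adjusted p = 0.199, limma). With sgMef2c it was -1.64 (SE 0.41, adjusted p = 0.0231, limma), but Cd74 passed the expression filter only through the control libraries, which makes a call in this direction more likely. The call was lost without guide 1 (adjusted p = 0.0657) and with DESeq2 (0.163). Cd74 (chromosome 18, 60803848 to 60812652, plus strand) also shares exon bases with Mir5107.

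H2-Aa, one of the alpha chains, had 2 and 6 reads in the controls, 5 and 4 with sgSik3 and 2 and 1 with sgMef2c. H2-Ab1, its beta chain, had 2 and 2 reads in the controls, 2 and 3 with sgSik3 and 0 in both sgMef2c libraries. H2-Eb1, the beta chain of the other dimer, had 2 and 5 reads in the controls, 2 and 0 with sgSik3 and 2 and 2 with sgMef2c. No fold is given, because these counts are at or close to a floor of 3 reads. Ciita, the class II regulator, had 5 and 7 reads in the controls, 9 and 6 with sgSik3 and 5 and 4 with sgMef2c, so a change in it was not detectable at this depth. The genes lie on chromosome 17 at 34282744 to 34287823 (H2-Aa), 34257689 to 34269419 (H2-Ab1) and 34305867 to 34316674 (H2-Eb1), and Ciita on chromosome 16 at 10480059 to 10528418.

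The difference between the knockouts was tested directly, with the 6 RN2c libraries on 1 common scale. H2-K1, H2-D1, B2m and Nlrc5 were lower in sgMef2c than in sgSik3, that is 4 of the 6 genes tested, where 9.78% of all genes passed, 5.6% as lower and 4.18% as higher. On this scale H2-K1 was 5814 and 5681 with sgSik3 and 4686 and 4204 with sgMef2c, a log2 difference of -0.37 (SE 0.05, adjusted p = 0.00316, limma). H2-D1 was 2548 and 2435 against 2008 and 1925, and its difference was -0.34 (SE 0.04, adjusted p = 0.00269, limma). B2m was 11000 and 10646 with sgSik3 and 9223 and 8507 with sgMef2c.

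The B2m difference was -0.29 (SE 0.04, adjusted p = 0.00513, limma). Nlrc5 was 317 and 388 with sgSik3 and 270 and 170 with sgMef2c, and its difference was -0.71 (SE 0.18, adjusted p = 0.0378, limma). In these 4 genes, and in Cd74, the sgMef2c libraries lay below the sgSik3 libraries without overlap. The same was so for H2-Aa, H2-Ab1 and Ciita, which had too few reads to be tested. The share of all genes without overlap was not counted, so nothing is concluded from the lack of overlap. Tap1 (-0.15, 95% interval -0.30 to 0.01, adjusted p = 0.218, limma) and Cd74 (-1.01, adjusted p = 0.179, limma) did not pass. The 4 calls were lost without either sgSik3 library: without guide e1 the adjusted p was 0.0928 for H2-K1, 0.0815 for H2-D1, 0.108 for B2m and 0.147 for Nlrc5. Without guide e3 these were 0.0822, 0.0546, 0.0875 and 0.307, and Nlrc5 was also lost without sgMef2c guide 2 (0.102).

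Some genes listed as markers of macrophages and dendritic cells differed between the RN2c groups as well. The summed level of 7 macrophage markers was 207 to 221 CPM in sgRosa26, 251 to 261 in sgSik3 and 174 to 185 in sgMef2c, and among them C1qa was at 0 in all 3 groups. The summed level of 7 dendritic cell markers was 12.0 to 14.0, 11.7 to 12.3 and 6.07 to 7.58 CPM in the same order, with Siglech at 0 in all 3 groups. The sgRosa26 and sgSik3 ranges of this sum overlapped. Few genes carried the sums: in the controls of the sgSik3 table Adgre1 was at 3247 normalised counts, Csf1r at 1124 and Itgax at 237. Mertk, Cd163, Mrc1, C1qa and C1qb were each at 1.94 or lower there. With sgMef2c the means of Clec9a and C1qb were higher and those of Xcr1 and Mrc1 lower, all at few reads. Of each list 2 genes had enough reads to be tested, where 47.8% of all genes passed with sgSik3 and 31.4% with sgMef2c. Adgre1, which encodes the macrophage antigen F4/80, rose with sgSik3 (log2 fold change 0.36, adjusted p = 0.00064, limma), and Csf1r fell with sgMef2c (-0.42, adjusted p = 0.00512, limma). Neither passed in the other knockout: Csf1r was at 0.08 with sgSik3 (adjusted p = 0.218, limma) and Adgre1 at -0.16 with sgMef2c (adjusted p = 0.0835, limma). Itgax, encoding CD11c, fell with sgMef2c (-0.90, adjusted p = 0.00609, limma) and did not pass with sgSik3 (0.04, adjusted p = 0.809, limma). Flt3, a receptor of early progenitors and dendritic cells, fell with sgSik3 (-1.62, adjusted p = 0.00889) and with sgMef2c (-1.92, adjusted p = 0.0472), both in limma. Like Cd74, Flt3 passed the expression filter only through the controls, which favours a call as lower. The Flt3 calls were lost with DESeq2 and when single libraries were left out, with adjusted p up to 0.166. The part of these cells or states in the class I result was not tested.

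**Figure D3:**
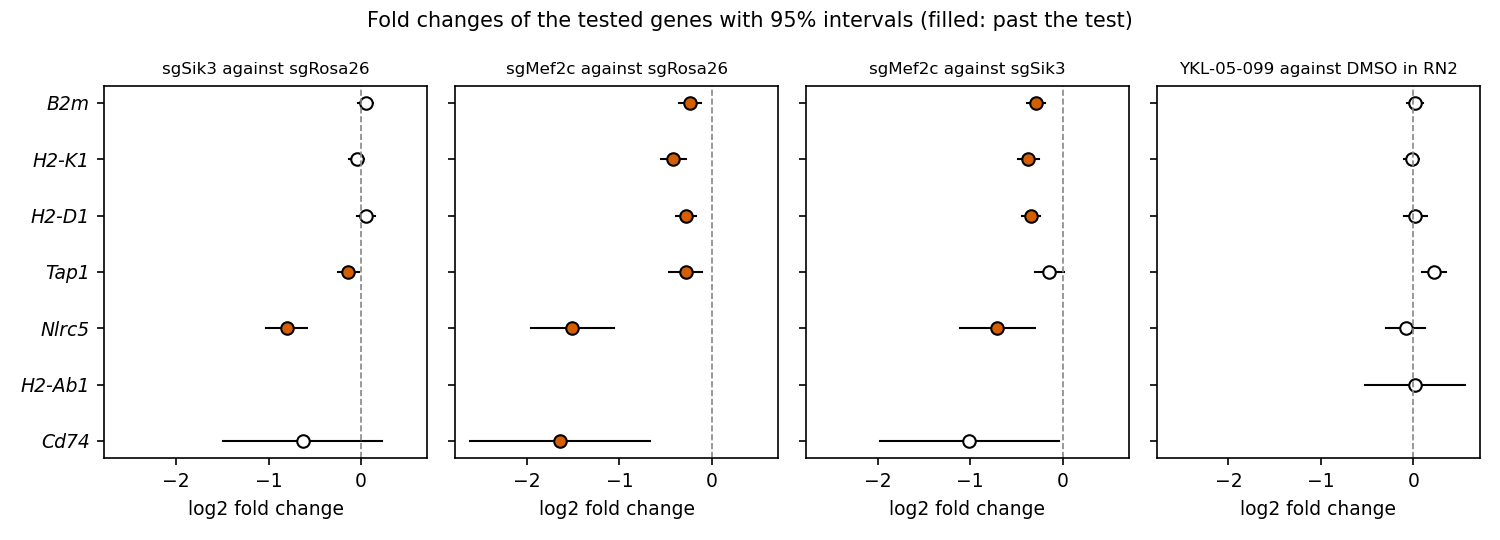
Log2 fold changes of the tested genes with 95% intervals in the 4 comparisons; filled points passed at an adjusted p under 0.05. B2m, H2-K1 and H2-D1 have intervals that include 0 with sgSik3 and YKL-05-099 and lie left of 0 with sgMef2c; Tap1 lies at -0.14 with sgSik3 and 0.22 with YKL-05-099, and Nlrc5 lies left of 0 in both knockouts.

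YKL-05-099 for 2 h gave no call among the 6 genes tested in RN2 cells by limma, edgeR or DESeq2. These fits did not pair libraries by replicate number, and 0.317% of all genes passed in limma, 0.28% as lower and 0.0373% as higher. At an unadjusted p under 0.05 there was 1 gene, Tap1. Its normalised count was 1028 and 983 with DMSO and 1195 and 1150 with the inhibitor, a log2 fold change of 0.22 (SE 0.06, adjusted p = 0.255, limma). The Tap1 groups did not overlap. For Nlrc5 the values were 411 and 357 with DMSO and 369 and 354 with the inhibitor, and the groups overlapped. Its log2 fold change was -0.08 (95% interval -0.30 to 0.13, adjusted p = 0.91, limma).

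H2-K1 was 5982 and 6153 with DMSO and 5926 and 6036 with YKL-05-099, a log2 fold change of -0.02 (95% interval -0.10 to 0.06). H2-D1 was 1587 and 1535 against 1532 and 1638, and its log2 fold change was 0.02 (95% interval -0.10 to 0.14). B2m was 5982 and 5741 against 5933 and 5912, also 0.02 (95% interval -0.07 to 0.10). Changes in these 3 genes larger than 0.14 on the log2 scale are outside the intervals. H2-Ab1 had 29 and 36 reads with DMSO and 37 and 32 with the inhibitor, a log2 fold change of 0.02 whose interval ran from -0.52 to 0.56. Cd74 had 3 and 6 reads against 3 and 1, H2-Aa 2 and 3 against 6 and 5, H2-Eb1 2 and 0 in both, and Ciita 1 and 2 against 1 and 4, all too few to test. The inhibitor and guide experiments differ in length and in the cells used, so no comparison is made between them.

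The rest of the class I route was examined through 4 lists. Of 10 other class I heavy chain genes, 7 were tested. With sgSik3, H2-T24 rose (log2 fold change 0.38, adjusted p = 0.0049, limma) and the other 6 did not pass, where 23.9% of all genes rose, with a list median of 0.06. The H2-T24 call was lost without guide e3 (0.0594). With sgMef2c, H2-M3, which presents formylated peptides, fell (-0.65, adjusted p = 0.00689), as did H2-Q4 (-0.54, adjusted p = 0.0248) and H2-T23, which encodes Qa-1 (-0.26, adjusted p = 0.0288), all in limma. These are 3 of 7, where 15.1% of all genes fell, and the list median was -0.26. H2-Q4 and H2-T23 also differed between the knockouts (-0.61 and -0.27, adjusted p = 0.0204 and 0.0314, limma). The H2-Q4 and H2-T23 calls, though not that of H2-M3, were lost in DESeq2 and when single libraries were left out, with adjusted p up to 0.127 and 0.142 against sgRosa26.

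Among 7 genes of class I peptide loading, 4 fell with sgSik3, where 23.9% of all genes fell: Calr (log2 fold change -0.25, adjusted p = 0.000887), Tap2 (-0.17, adjusted p = 0.00468), Canx (-0.15, adjusted p = 0.00274) and Pdia3 (-0.14, adjusted p = 0.00565), all in limma. Calr, Canx and Pdia3 are general chaperones of the endoplasmic reticulum, and Tap2 is the partner of Tap1. The Pdia3 call was lost without guide e3 (0.0683). With sgMef2c, Tap2 (-0.31, adjusted p = 0.00263) and Calr (-0.20, adjusted p = 0.0399) fell in limma and the other 5 did not pass, where 15.1% of all genes fell. The Calr call with sgMef2c was lost without either control or guide 2, with adjusted p up to 0.224. The list medians were -0.14 and -0.08, against 0.00 over all genes in each comparison.

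Of 5 immunoproteasome genes, Psmb8 and Psmb10, catalytic subunits, fell in both knockouts, where 23.9% of all genes fell with sgSik3 and 15.1% with sgMef2c. Psmb8 was 4109 ± 179 normalised counts in the controls and 3111 ± 67.3 with sgSik3 (SD, n = 2), a log2 fold change of -0.40 (adjusted p = 5.8e-05, limma). With sgMef2c its log2 fold change was -0.47 (adjusted p = 0.00233, limma). Psmb10 gave -0.32 with sgSik3 and -0.37 with sgMef2c (adjusted p = 0.00182 and 0.00457, limma). Psmb9, Psme1 and Psme2 did not pass in either.

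Of 9 genes of class II loading and processing tested with sgSik3, 3 rose and 2 fell, shares near those of all genes (23.9% rose and 23.9% fell). Those that rose were March1, a ubiquitin ligase that removes class II molecules from the surface (log2 fold change 1.10, adjusted p = 0.004), H2-DMb2 (1.03, adjusted p = 0.0155) and H2-Oa, part of the inhibitor of peptide exchange (0.73, adjusted p = 0.000143), all in limma. The proteases Lgmn (-0.82, adjusted p = 0.000254) and Ctss (-0.32, adjusted p = 0.00736) fell. With sgMef2c, 3 rose (H2-DMb2 1.14, March1 1.03, H2-Oa 0.46) and 3 fell (H2-Ob -0.93, Lgmn -0.88, Ctss -0.66), with adjusted p from 0.00335 to 0.0319 in limma, where 16.3% of all genes rose and 15.1% fell. The list medians were 0.09 and 0.02. H2-Ob, the beta partner of H2-Oa, was lower in sgMef2c than in sgSik3 (-1.01, adjusted p = 0.00857), and so was Ctss (-0.35, adjusted p = 0.042), both in limma. Of these calls, those of H2-Oa, Lgmn and March1 with sgSik3 and of Ctss with sgMef2c held in every alternative analysis run.

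In the interferon-gamma pathway, 5 of the 8 genes reported rose with sgSik3 and 1, Irf8, fell, where 23.9% of all genes rose and 23.9% fell. Ifngr1, a receptor chain, had a log2 fold change of 0.45 (adjusted p = 7.04e-06), Jak2 of 0.34 (adjusted p = 0.000891) and Jak1 of 0.30 (adjusted p = 6.9e-05), all in limma. Irf1, a transcription factor induced by interferon, was at 0.16 (adjusted p = 0.0489) and Ifngr2 at 0.17 (adjusted p = 0.0448), both close to the threshold and lost in DESeq2 (0.285 and 0.116). With sgMef2c, 2 rose and Irf8 fell, where 16.3% of all genes rose and 15.1% fell: Ifngr1 (0.39, adjusted p = 0.00113) and Jak2 (0.28, adjusted p = 0.0199) were higher in limma. The Jak2 call with sgMef2c was lost without control 1 (0.0941) or guide 2 (0.104). The list medians were 0.16 and 0.03.

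Irf8, a myeloid transcription factor, was 3357 and 2638 normalised counts in the controls and 1533 and 1539 with sgSik3. Its log2 fold change was -0.95 (SE 0.09, adjusted p = 3.92e-05, limma). In the sgMef2c table it was 3529 and 2765 in the controls and 1841 and 1377 with sgMef2c, a log2 fold change of -0.97 (SE 0.15, adjusted p = 0.00393, limma). With YKL-05-099 it was 2443 and 2252 with DMSO and 1837 and 1828 with the inhibitor, a log2 fold change of -0.36 (SE 0.05, adjusted p = 0.0236, limma). The groups did not overlap in any of the 3 comparisons. Irf8 was the 1 listed gene that passed with the inhibitor, and that call was lost when no expression filter was used (adjusted p = 0.386) or no trend (0.529).

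Of the 7 factors that bind the shared promoter module, 3 rose with sgSik3 and 2 with sgMef2c, where 23.9% and 16.3% of all genes rose. With sgSik3, Creb1 (log2 fold change 0.36, adjusted p = 3.54e-05), Rfxank (0.26, adjusted p = 0.0319) and Nfyb (0.17, adjusted p = 0.0209) were higher in limma. With sgMef2c, Creb1 (0.31, adjusted p = 0.00156) and Nfyb (0.21, adjusted p = 0.0277) were higher in limma. Creb1 held in every alternative, while Nfyb and Rfxank were lost in DESeq2 (Nfyb 0.159 and 0.137, Rfxank 0.223) and when single libraries were left out. The list medians were -0.02 and 0.04.

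**Figure D4:**
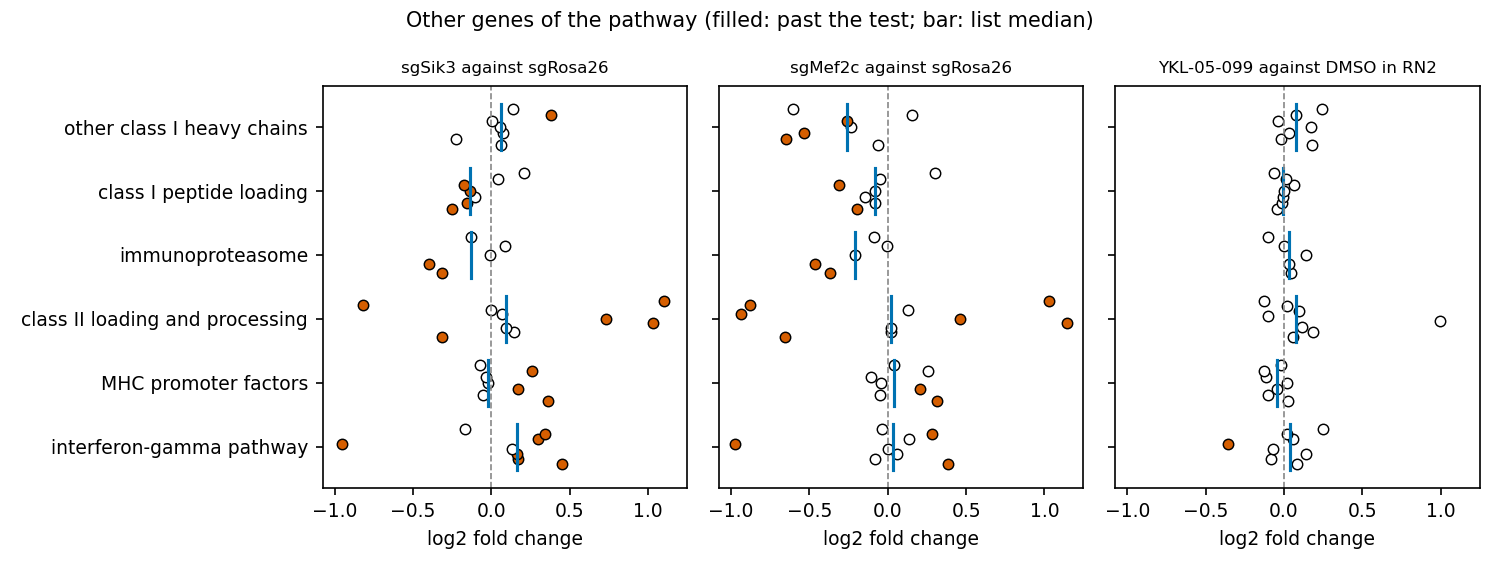
Log2 fold changes of the tested genes in 6 lists of the pathway, for both knockouts and YKL-05-099. Filled points passed at an adjusted p under 0.05 and blue bars are list medians; Irf8 is the filled point left of 0 in the interferon-gamma list in all 3 panels.

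Likeness was searched among tested genes outside the 10, leaving out predicted or unnamed gene models. Among these, the profiles over the 6 RN2c libraries most like that of B2m were those of B4galt5, Gla, Dnajc10, Zak and Hgsnat. Likeness was the mean absolute difference of centred log2 values, from 0.024 for B4galt5 to 0.030 for Hgsnat. B4galt5 had a log2 fold change of 0.03 with sgSik3 and -0.22 with sgMef2c. For Cd74 the nearest such genes were Prkch, Tlr13, Abca8b, Olfm1 and Tln2, at 0.276 to 0.298, a looser likeness at a level of a few reads. The log2 fold change of Tln2 was -0.63 in sgSik3 and -1.35 in sgMef2c. These genes were picked by their profiles over the same libraries, so fold changes near those of B2m or Cd74 follow from the choice.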

How the data were processed

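Poly(A) RNA was sequenced from 4 RN2 and 6 RN2c libraries. HISAT2, featureCounts, DESeq2 and mm10 are named in the submitters' processing notes. Their versions are not stated in the labels. The authors deposited a signal per gene and library that behaves as a normalized count: dividing by the smallest nonzero value of the library gave whole reads for 100% of values (tolerance 1e-06). Replicate libraries differed by more than sampling noise.

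The genes and lists were chosen with earlier results of these data known. The 10 genes are always named, and up to 4 symbols per list and comparison with the lowest p, with further listed genes that passed named beside their count. Genes whose mean value was 10 or more were tested on log2(value + 1) with limma 3.58.1 (mean-variance trend) in R 4.3.3, adjusted over all genes by Benjamini-Hochberg, with a threshold of 0.05. Fold changes are on that scale, which understates changes of low genes. RPKM used exon lengths of the GENCODE GRCm38 annotation. For sgMef2c against sgSik3, the recovered reads of all 6 RN2c libraries were rescaled together. Alternatives were edgeR 4.0.16 and DESeq2 1.42.0 on recovered reads, TMM scaling, other pseudocounts and filters, no trend, and leaving out each library. Methods were tested on simulated data. The 4 MOLM-13 libraries were not used here, and 1 gene of the interferon-gamma list is not reported here.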

Additional observations from a re-analysis of the deposited data

Results flagged for a closer look

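Genes that differed between the 2 knockouts in the direct limma test were, among the class I genes and regulators, H2-K1 (log2 difference, sgMef2c minus sgSik3, -0.37), H2-D1 (-0.34), B2m (-0.29) and Nlrc5 (-0.71). Among the other listed genes they were H2-Q4 (-0.61), H2-T23 (-0.27), H2-Ob (-1.01), Ctss (-0.35), Ifngr2 (-0.25), Itgax (-0.95), Adgre1 (-0.52) and Csf1r (-0.51). All 12 differences have the same sign, lower in sgMef2c, where 5.6% of all genes passed as lower and 4.18% as higher. They are 4 of the 6 tested among the 10 genes, 2 of 7 other heavy chains and 2 of 9 class II loading genes. The interferon-gamma list gave 1 of 8, dendritic cell markers 1 of 2 and macrophage markers 2 of 2. None of 7 class I peptide loading, 5 immunoproteasome or 7 promoter module genes was called. None of the 12 calls was kept in every alternative: of the calls, 0 of 4 and 0 of 8 held throughout.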

How the results depend on the processing

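With 2 libraries a group, counts of calls move with the spread estimate. No fold change of a called gene reversed. TMM scaling moved the median of all genes by under 0.01, and TMM, edgeR and both other pseudocounts changed no call among the 10 genes. A filter at 50 changed no call among those still tested. It left Cd74, called as lower with sgMef2c, and H2-Ab1 untested. The number of the 10 genes called with sgSik3 was 2, and 1 with no filter, with no trend and with DESeq2, and 1 to 2 without single libraries. With sgMef2c it was 6, 4 with no trend, 5 with DESeq2, and 3 to 5 without single libraries. Between the knockouts it was 4, 0 with no trend and 0 to 4 without single libraries. Over all genes, sgMef2c gave 3442 calls, 1628 with no trend, 2255 with DESeq2 and 1815 to 3138 without single libraries. The direct comparison gave 1071, 72 with no trend, 601 with DESeq2 and 45 to 1199 without single libraries. YKL-05-099 gave 34, 3 with no filter, 0 with no trend (786 genes were at an unadjusted p under 0.05 in limma) and 28 to 321 without single libraries. A group left with 1 library is assumed to vary like the others. Other listed calls kept in every alternative were 13 of 23 with sgSik3 and 9 of 21 with sgMef2c.

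Replicate numbers are not stated to mark shared cultures, and with 2 pairs the correlation of same-numbered libraries (0.05 for sgMef2c, 0.22 for RN2) does not establish pairing. With the replicate block, YKL-05-099 gave 499 calls over all genes and 1 among the 10, Tap1 (adjusted p = 0.00141, limma).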

Other observations

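H2-Ab1 had 29 to 37 reads in each RN2 library and 0 to 3 in each RN2c library, although the RN2c libraries are deeper. Cd74 had 1 to 6 reads in RN2 and 4 to 18 in RN2c. The tables were normalised separately and the cell lines differ in Cas9 and handling, so this difference was not tested. H2-Q6 and H2-Q7 had 0 reads in all 10 libraries, while H2-Q4 had 304 ± 15.7 normalised counts in DMSO-treated RN2 cells (SD, n = 2). Because the split of reads between heavy chain genes is uncertain, 0 reads here does not show that a gene is silent.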
